A study of Mus musculus with 17 samples.

Results

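The subject is a set of 10 genes whose proteins add phosphate to tau or remove it: the kinase genes Gsk3a, Gsk3b, Cdk5, Mark1, Mark2, Dyrk1a and Fyn, the CDK5 activator gene Cdk5r1, and the phosphatase subunit genes Ppp2ca and Ppp2r2b. They were chosen by symbol for what their proteins are known to do, and all 10 were found among the 24498 gene symbols of the count table. Messenger RNA was sequenced in bulk from slices of mouse dorsal hippocampus, with the dentate gyrus and the CA1, CA2 and CA3 fields. The mice were WT or constitutive Acss2 knockouts (KO, ACSS2KO in the labels), both bred by homozygous crosses, and Acss2 encodes acetyl-CoA synthetase 2, which turns acetate into acetyl-CoA. Each mouse was injected into the brain at 6 months of age with PBS or with pathological tau purified from the cortex of people with Alzheimer's disease (Tau), and tissue was taken 6 months later. The 17 libraries fell into 6 groups. Males were WT PBS, WT Tau, KO PBS or KO Tau, with 3 mice in each, and females were KO Tau, with 3 mice, or WT Tau, with 2. There was no female group with PBS, so sex was compared only under Tau.

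Tau binds microtubules, and the phosphates it carries decide how firmly it binds. GSK3, CDK5, MARK and DYRK1A place phosphates on serines and threonines of tau, while FYN, a Src family kinase, acts on a tyrosine near its amino end. MARK kinases act inside the microtubule-binding repeats, and DYRK1A can prime sites that GSK3 then uses. Protein phosphatase 2A (PP2A), built from a catalytic, a scaffold and a regulatory subunit, is the main tau phosphatase of brain. All of these enzymes are regulated largely after translation, by phosphorylation, partner binding or cleavage, and messenger RNA levels report none of that. The study asked how loss of ACSS2 and pathological tau act together, and the comparisons below ask whether the messenger RNAs of these enzymes differed with genotype, with Tau and with sex.

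Among the 4 members that differed between female and male libraries under Tau, a promoter window was held for Gsk3a and Mark2, which is why these sequences are shown. They are the 250 bases before the RefSeq start nearest the annotated 5′ end of the gene (GRCm38.p6), Gsk3a at chr7:25237852-25238101 and Mark2 at chr19:7341861-7342110, both on the minus strand and printed 5′ to 3′. Capitals mark the GC box letters GGGCGG and the half-site letters TGACG of the cyclic AMP response element, searched on both strands.
Gsk3a: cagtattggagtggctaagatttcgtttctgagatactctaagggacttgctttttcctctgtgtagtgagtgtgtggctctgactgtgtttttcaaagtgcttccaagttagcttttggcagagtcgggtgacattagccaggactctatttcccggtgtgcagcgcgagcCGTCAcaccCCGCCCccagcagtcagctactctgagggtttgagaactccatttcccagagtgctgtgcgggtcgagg
Mark2: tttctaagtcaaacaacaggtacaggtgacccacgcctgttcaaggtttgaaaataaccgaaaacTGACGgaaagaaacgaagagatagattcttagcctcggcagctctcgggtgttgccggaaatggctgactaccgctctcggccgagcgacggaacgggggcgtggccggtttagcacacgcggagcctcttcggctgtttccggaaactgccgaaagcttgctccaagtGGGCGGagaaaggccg
Each of these windows held 1 GC box and 1 half-site, and their GC content was 52.00% and 55.6%. Of 32851 such windows over all genes, 32.7% held the GC box, 17.8% held the half-site and 1.55% held the whole element TGACGTCA, which contains the half-site on both strands. Windows were matched for 7 of the 10 members. Ppp2ca was the member whose window held the whole element, with 3 matches to the half-site, 2 of which are the element itself read on both strands. Dyrk1a held 3 GC boxes and no half-site, and Gsk3b held none of these motifs.

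The genotype labels were checked with Acss2. It lay between 3.08 and 8.88 CPM (read counts relative to library size, adjusted with TMM factors) in the 9 KO libraries and between 44.5 and 55.7 CPM in the 8 WT libraries, so the genotypes did not overlap. Total counts ran from 14183131 to 22463635 per library, and all 10 members had ample counts for testing in every library. Some slices stood apart in their make-up, from all others or from their own group. In the male KO PBS library 752 the summed level of 7 striatal neuron markers was 675 CPM, against 140.1 to 215 CPM in the other libraries. In the male KO Tau library 711 markers of neocortex and of inhibitory neurons were the lowest among male KO Tau libraries, at 241 and 644 CPM. Female KO Tau library 324 was lower on both lists, at 218 and 499 CPM. The male KO Tau library 713 held 4119 CPM of 8 choroid plexus markers, against 22.7 to 577 CPM in the other libraries. Results said below to rest on these libraries are given with and without them.

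To compare levels between genes, CPM was divided by exon length in kilobases. On that scale the medians over the 17 libraries ran from Cdk5r1 at 65.5, Ppp2ca at 53.6, Cdk5 at 52.5 and Gsk3a at 51.8 down to Fyn at 32.97, Ppp2r2b at 31.05, Gsk3b at 19.9, Mark1 at 17.1, Mark2 at 12.4 and Dyrk1a at 10.6 CPM per kilobase. Mapt, the tau gene itself, stood at 81.1 CPM per kilobase. Per unit of length the CDK5 activator and the catalytic PP2A subunit were therefore the most abundant of the set and Dyrk1a the least. The values of Ppp2ca, Cdk5 and Gsk3a lay within a few percent of each other, less than the spread of any of them over libraries. All levels that follow are CPM without the length term, and are compared only within a gene.

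**Figure D1:**
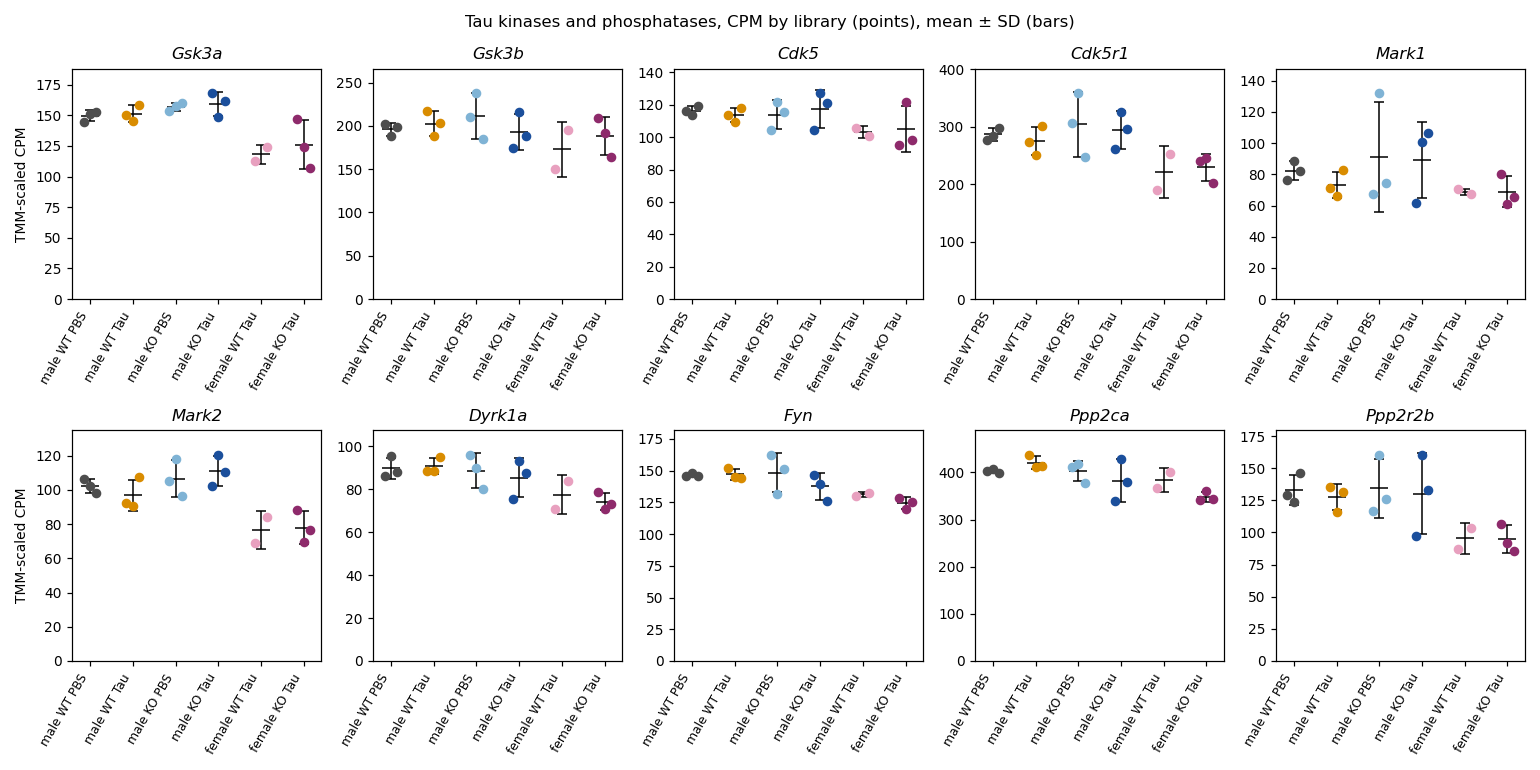
TMM-scaled CPM (y axis, from 0) of the 10 genes in each of the 17 libraries (points), in the 6 groups on the x axis, with bars for the mean ± SD. The 4 male groups overlap for nearly every gene, Mark1 has 1 high library at 132 CPM in male KO PBS, and the 5 female libraries of Mark2 lie at 68.8 to 88.2 CPM, below the 90.6 to 120.3 CPM of the males.

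The 2 GSK3 paralogs are serine/threonine kinases that are active at rest and are inhibited by AKT. Gsk3a (chr7:25228258-25237851, minus strand, 10 merged exon blocks) measured 145, 151 and 153 in WT PBS males, 150.3, 145 and 159 in WT Tau males, 153, 157 and 160.0 in KO PBS males and 168, 149 and 161 in KO Tau males. In females it measured 112 and 124 in WT Tau and 147, 124 and 107 in KO Tau. The male libraries were tight, and 4 of the 5 female libraries lay below every male library, female KO Tau library 314 being the exception. Gsk3a overlaps an antisense gene over 28.28% of its exon bases, but the counting used strand. Gsk3b (chr16:38089001-38246084, plus strand, 13 merged exon blocks) measured 202, 188 and 199 in WT PBS males, 217, 188 and 203 in WT Tau males, 210.4, 238 and 185 in KO PBS males and 175, 216 and 188 in KO Tau males. Females had 150.4 and 196 in WT Tau and 209, 192 and 164 in KO Tau. All 6 groups of Gsk3b overlapped, with the highest library in male KO PBS (752) and the lowest in female WT Tau (331).

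CDK5 is inactive without a neuronal partner, p35, which Cdk5r1 encodes and which calpain can cleave to the more stable p25. Cdk5 (chr5:24418241-24423530, minus strand, 11 merged exon blocks) measured 116, 114 and 119 in WT PBS males, 114, 109 and 118 in WT Tau males, 104, 122 and 115 in KO PBS males and 104, 127 and 121 in KO Tau males. Female values were 106 and 100.4 in WT Tau and 95.03, 122 and 98.6 in KO Tau. Cdk5 spanned a 1.34-fold range over all libraries with every group overlapping the others, apart from female WT Tau, whose 2 values lay below those of male WT PBS and male WT Tau. Cdk5r1 (chr11:80477023-80481184, plus strand, 1 exon) measured 277, 284 and 298 in WT PBS males, 273, 251 and 301 in WT Tau males, 307, 358 and 246 in KO PBS males and 261, 326 and 296 in KO Tau males. The female mice gave 189 and 253 in WT Tau and 241, 245 and 202 in KO Tau. The activator ranged over 1.89-fold, and 4 of the 5 female libraries lay below every male library.

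MARK1 and MARK2 belong to the microtubule affinity regulating kinases, which loosen tau from microtubules. Mark1 (chr1:184896789-184999570, minus strand, 19 merged exon blocks) measured 76.2, 88.6 and 82.4 in WT PBS males, 71.5, 66.3 and 82.6 in WT Tau males, 67.4, 132 and 74.4 in KO PBS males and 61.5, 101 and 106 in KO Tau males. Females had 70.3 and 67.5 in WT Tau and 80.2, 60.7 and 65.7 in KO Tau. Mark1 was the most variable member, with a 2.17-fold range and a within-group SD of 0.31 on the log2 scale. Its widest spread was in both KO male groups, where library 752 was high and library 711 was low against the other libraries of its group. Mark2 (chr19:7275396-7341860, minus strand, 17 merged exon blocks) measured 106, 102 and 98.4 in WT PBS males, 92.3, 90.6 and 107 in WT Tau males, 105, 118 and 96.6 in KO PBS males and 102, 120.3 and 111 in KO Tau males. Female values were 68.8 and 84.3 in WT Tau and 88.2, 69.3 and 76.3 in KO Tau. For Mark2 no female library reached the lowest male one.

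DYRK1A is a dual-specificity kinase encoded in the mouse region that matches the human Down syndrome critical region, and FYN links dendritic tau to NMDA receptor signalling. Dyrk1a (chr16:94570010-94695517, plus strand, 13 merged exon blocks) measured 86.1, 95.4 and 88.3 in WT PBS males, 88.7, 88.5 and 95.2 in WT Tau males, 95.9, 90.2 and 80.00 in KO PBS males and 75.5, 93.2 and 87.8 in KO Tau males. Its female values were 71.04 and 83.9 in WT Tau and 78.9, 70.8 and 73.2 in KO Tau. Fyn (chr10:39368855-39565381, plus strand, 20 merged exon blocks) measured 146, 148 and 145 in WT PBS males, 152, 145 and 144 in WT Tau males, 162, 132 and 151 in KO PBS males and 147, 139 and 126 in KO Tau males. The female mice gave 130.0 and 132 in WT Tau and 129, 119.6 and 125 in KO Tau. Both genes were narrow, at 1.35-fold and 1.36-fold from lowest to highest library, and in neither did the sexes separate fully.

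Ppp2ca encodes the alpha catalytic subunit of PP2A, and Ppp2r2b encodes a brain-enriched B55 regulatory subunit, a family that directs PP2A to tau. Ppp2ca (chr11:52098681-52127778, plus strand, 7 merged exon blocks) measured 402, 407 and 398 in WT PBS males, 437, 411 and 414 in WT Tau males, 411, 418 and 378 in KO PBS males and 338, 429 and 379 in KO Tau males. Females had 366 and 401 in WT Tau and 341, 360.1 and 343 in KO Tau. By range over all libraries Ppp2ca was the steadiest member, at 1.29-fold, and its lowest library was 711. Its within-group SD on the log2 scale was 0.090, and that of Fyn was smaller, at 0.086. Ppp2r2b (chromosome 18, minus strand) measured 129, 124 and 147 in WT PBS males, 135, 116 and 131 in WT Tau males, 116, 160.0 and 126 in KO PBS males and 97.1, 160.1 and 133 in KO Tau males. Female values were 86.9 and 104 in WT Tau and 107, 92.1 and 85.7 in KO Tau. Its range was 1.87-fold, and 711 was the 1 male library that fell within the female range.

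In male mice the messenger RNAs of these enzymes did not differ detectably with Tau, with Acss2 genotype or with both together in the edgeR fit of all 12 libraries. No member passed a false discovery rate (FDR) of 0.05 by edgeR's quasi-likelihood test in any of the 5 pairwise comparisons, the genotype by treatment interaction or the 2 averaged contrasts. The count at an unadjusted p under 0.05 was also 0 of 10 in each. Of 15098 genes tested, 0% were called for Tau against PBS within WT, within KO or averaged over genotype and for the interaction, and 0.00662%, which is Acss2 alone, were called in every comparison of KO with WT. At unadjusted p the background was 1.86% for WT Tau against WT PBS, 4.42% for KO PBS against WT PBS, 6.33% for KO Tau against WT PBS, 4.71% for KO Tau against WT Tau, 7.95% for KO Tau against KO PBS, 4.18% for the interaction, 4.58% for KO against WT and 5.38% for Tau against PBS. By DESeq2 on the same libraries the members called were also 0 of 10 in each of the 8. That test called 0% to 0.245% of all genes there, so 0 of 10 is near the background.

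The fitted differences were small. Over the 5 pairs of groups they ran from -0.18 to 0.29 on the log2 scale, both ends being Mark1, for WT Tau against WT PBS and for KO Tau against WT Tau. The precision differed by member: the 95% interval of a pair reached ±0.16 for Gsk3a, the narrowest, and ±0.55 for Mark1, the widest, by the edgeR fit of the 12 male libraries. Averaged over treatment, Gsk3a in KO against WT lay within -0.04 to 0.19, and Gsk3a in Tau against PBS averaged over genotype within -0.10 to 0.13. For Gsk3b the interval for Tau against PBS was -0.22 to 0.13, for Cdk5 it was -0.14 to 0.14, and for Ppp2ca it was -0.16 to 0.14. Any Tau effect on these members larger than those bounds lies outside the 95% interval.

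**Figure D2:**
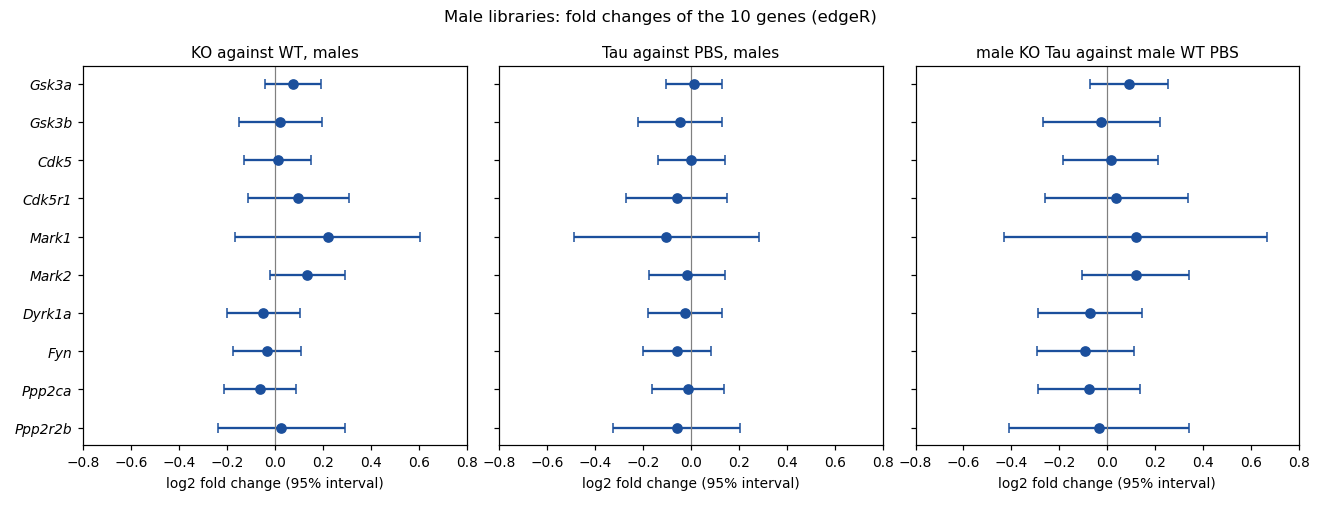
Fitted log2 fold changes (x axis) with 95% intervals (bars) of the 10 genes (y axis) in the 12 male libraries, for KO against WT averaged over treatment, Tau against PBS averaged over genotype, and KO Tau against WT PBS. Every interval crosses 0, the widest being those of Mark1.

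The member with the smallest unadjusted p among male mice was Mark2, at 0.0655 for KO Tau against WT Tau by edgeR. Over both treatments it averaged 109 CPM in KO against 99.5 CPM in WT, a log2 difference of 0.14 (SE 0.07), with an unadjusted edgeR p of 0.0849 and an FDR of 0.945. Under Tau the KO mean was 111 CPM against 96.8 CPM in WT, with an edgeR FDR of 0.927. Mark1 had a larger error, with a KO against WT difference of 0.22 (SE 0.18) that moved to 0.04 without library 752, to 0.32 without library 711 and to -0.02 with the dentate granule marker score as a covariate. Under PBS alone the Mark1 difference was 0.15 and turned to -0.21 without library 752. Groups failed to overlap for 1 member in each of 2 pairs: Ppp2ca was higher in every WT Tau library than in any WT PBS library, by 0.05 on the log2 scale, and Gsk3a was higher in every KO PBS library than in any WT PBS library, by 0.07. The share of all genes whose groups did not overlap was 12.1% and 10.1% in those pairs, so 1 of 10 is near the background. It was 0 of 10 against 14.2% for KO Tau against WT PBS, 12.3% against WT Tau and 8.62% against KO PBS.

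In males Mark1 was called only where the test, the groups fitted and the use of library 711 changed together. Their separate parts were not tested. With DESeq2 on only the groups compared and without library 711, Mark1 was called higher in KO Tau, by 0.33 against WT PBS (FDR 0.0223) and by 0.50 against WT Tau (FDR 0.000855). It was the 1 of 10 members called in either, where 6.91% and 9.23% of all genes were called, so that 1 of 10 is near the background, and it was not called against KO PBS. DESeq2 is the tool of the study, which describes fewer male KO Tau mice than the labels hold without naming the missing one, so this setting lies near its own. With edgeR on the 11 remaining male libraries, Mark1 had nearly the same differences, 0.32 and 0.50, with an FDR of 0.599 and 0.372. Mark1 in library 711 was 61.5 CPM, against 100.5 and 106 CPM in the other 2 KO Tau libraries. The inhibitory and neocortex markers of 711 were low too. Its astrocyte markers summed to 2732 CPM, against 1327 and 1478 CPM in 712 and 713. Its 5 nuclear-retained RNAs, listed as a possible sign of RNA quality, summed to 6172 CPM, the highest of the 17 libraries, against 2573 and 3460 CPM. The part of these in the result was not tested.

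Under Tau, genotype was also compared in female mice, with 3 KO and 2 WT libraries. No member was called by edgeR (0 of 10, where 0.00649% of 15419 genes were called), and none had an unadjusted p under 0.05, where 2.89% of genes did. The differences lay between -0.13 for Ppp2ca and 0.13 for Gsk3b on the log2 scale. Fyn and Ppp2ca were lower in each KO library than in either WT library, a count of 2 of 10 beside 16% of all genes with no overlap in either direction. Ppp2ca averaged 348 ± 10.4 CPM (SD, n = 3) in female KO Tau and 384 ± 25.1 CPM (SD, n = 2) in female WT Tau, and its edgeR FDR was 0.997. The sex by genotype interaction called 0 of 10 members and, over all genes, 0%, with 0 of 10 and 2.94% at unadjusted p.

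Female and male libraries under Tau did differ, and all 10 members had lower fitted values in females, where 51.5% of all genes did. Mark2, Gsk3a, Ppp2r2b and Cdk5r1 passed an FDR of 0.05, all lower, and 5 of 10 members had an unadjusted p under 0.05, where 39.8% of all genes did. In this comparison 23.8% of the 15419 genes were called, 12.4% lower and 11.4% higher, so 4 of 10 lower calls stand beside a background of 12.4%. With total counts in place of TMM factors, 63.8% of all calls were higher in females, against 47.8% with TMM factors. The median over the 10 members was -0.23 on the log2 scale and that over all genes was -0.01. Averaged over genotype, Mark2 was 77.2 CPM in females and 104 CPM in males, a log2 difference of -0.43 (SE 0.10, FDR 0.0138 by edgeR). Mark2 was also the 1 member whose sexes did not overlap, as was so for 11% of genes. Gsk3a was 122 against 155 CPM, a difference of -0.35 (SE 0.09, edgeR FDR 0.0236). Ppp2r2b was 95.1 against 129 CPM, a difference of -0.44 (SE 0.13, edgeR FDR 0.0316). Cdk5r1 was 225 against 285 CPM, a difference of -0.34 (SE 0.11, edgeR FDR 0.0429).

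Of the other 6 members, Dyrk1a had a difference of -0.22 (edgeR FDR 0.0717) and Fyn of -0.16 (edgeR FDR 0.126). The rest lay between -0.24 for Mark1 and -0.13 for Gsk3b, with intervals that crossed 0. Mapt was lower in females as well, at 511 against 639.6 CPM, a difference of -0.33 (edgeR FDR 0.0317), with no female library reaching the lowest male one and a call in 8 of 20 alternatives. Markers of other cell types moved with sex too. Summed over 6 endothelial markers, female libraries reached 274 to 322 CPM against 169.7 to 265 CPM in male Tau libraries, with 5 of 6 markers called higher, and 4 of 7 astrocyte markers were called higher, with sums of 2632 to 4189 against 1327 to 2732 CPM. Of 6 thalamus markers 4 were called higher (146 to 498 against 102.8 to 201 CPM), and of 7 microglia markers 3 (551 to 656 against 431 to 583 CPM). Of 7 inhibitory neuron markers 4 were called lower (499 to 659 against 644 to 1061 CPM), and of 6 pan-neuronal markers 3 were lower and 1 higher (5462 to 7211 against 5769 to 7931 CPM). Of 6 CA1 pyramidal markers and of 8 neocortex markers 2 each were lower. Of the 5 nuclear-retained RNAs 0 were called, with sums of 4722 to 6039 CPM in female KO Tau and 3506 and 3876 CPM in female WT Tau, against 2573 to 6172 CPM in male Tau libraries. No marker gene of these lists was at 0 in all libraries. In bulk tissue fewer cells of a type and less RNA per cell cannot be told apart, and sex and slice make-up differed together here, so they cannot be told apart either. All female libraries carried numbers from 314 to 341 and all male libraries numbers from 711 to 793. Sex therefore cannot be told apart from anything else that went with these number series, which the labels do not explain.

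The calls rested on few libraries. Without female WT Tau library 331 no member was called (0 of 10, where 3.99% of all genes were called), and without male KO Tau library 711 the count rose to 6 of 10 (40.7%). Without 324, 713 or 773 the count was 1 of 10 each, where 16.97%, 11.5% and 10.3% of all genes were called, and without 325, 712 or 771 it was 2 of 10, where 15.5%, 14.8% and 15.2% were, so those counts are near the background. The fitted value of Mark2 kept its sign throughout, between -0.52 and -0.34, and Mark2 was called in 18 of 20 alternatives. Gsk3a was called in 14, Ppp2r2b in 11 and Cdk5r1 in 5 of the 20. Within KO mice alone Mark2 was the 1 member called (-0.52, edgeR FDR 0.0448), and within WT mice alone none was, with Mark2 at -0.34. The shares of all genes called within 1 genotype are not given here, so these counts are not read against a background. With the dentate granule marker score as a covariate, Ppp2r2b moved to -0.35 and Cdk5r1 to -0.30, and 3 of 10 members were called.

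**Figure D3:**
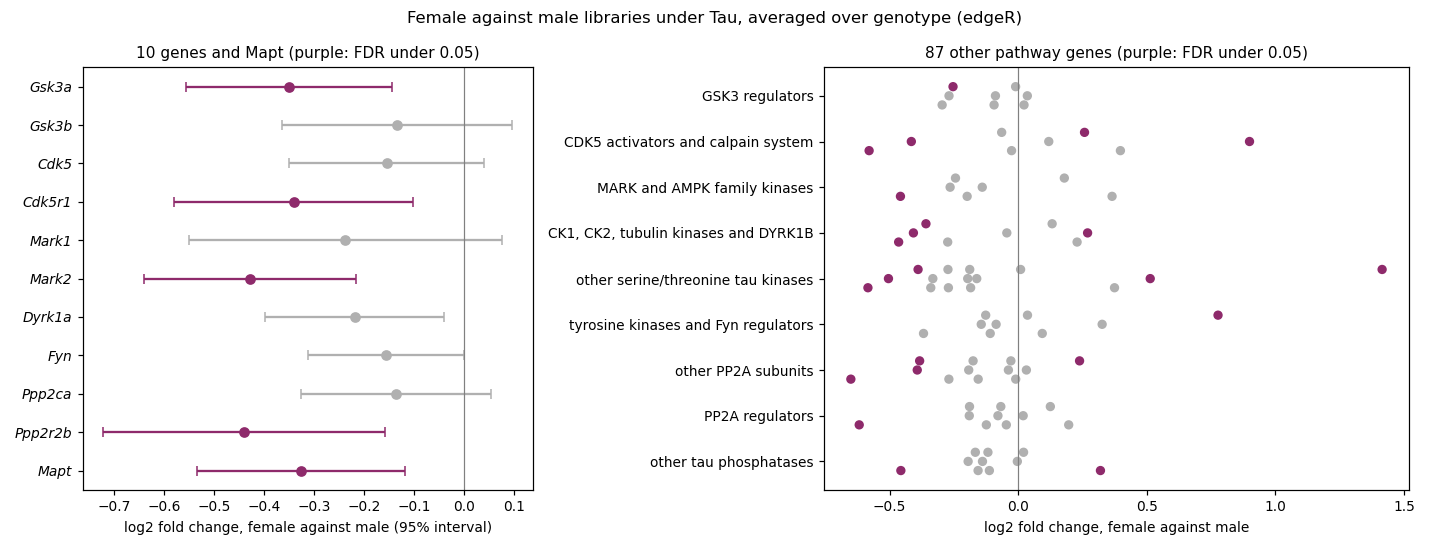
Log2 fold changes of female against male libraries under Tau (x axes), averaged over genotype: on the left the 10 genes and Mapt with 95% intervals, on the right the 87 other pathway genes by list, 1 point per gene. Purple marks FDR under 0.05. All 10 genes lie below 0, while the pathway genes spread to both sides, from -0.65 (Ppp2r1a) to 1.41 (Sgk1).

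The 87 other genes of the pathway were grouped in 9 lists. In males 0 of 87 were called in any comparison. At an unadjusted p under 0.05 their largest count was 9 of 87, 6 higher and 3 lower, for KO Tau against WT Tau, where 4.71% of all genes had such a p. For KO against WT, 3 of 87 had an unadjusted p under 0.05, where 4.58% of all genes did, all with higher fitted values in KO: Stk11, which encodes LKB1, the upstream kinase of MARK and AMPK, at 0.18 (edgeR FDR 0.945), the GSK3 inhibitor Akt1 at 0.18, and Brsk2, a relative of the MARK kinases, at 0.20. For KO Tau against WT PBS, where 6.33% of all genes had such a p, they were 3 of 87, Stk11 at 0.23, the PP2A-binding gene Igbp1 at 0.24 and the PP2A activator gene Ptpa at 0.18, each with an edgeR FDR of 0.783. None of these passed the adjustment.

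Between the sexes under Tau, 15 of 87 pathway genes were called lower in females and 8 higher, beside the background of 12.4% and 11.4%, and their median was -0.12. The PP2A genes included the largest fitted decrease of the 87. Ppp2r1a, the scaffold on which the holoenzyme is built, was 413 CPM in females and 647 CPM in males (-0.65, edgeR FDR 0.0088), with no overlap. Among the 12 other PP2A subunits the B56 genes Ppp2r5b (-0.39) and Ppp2r5d (-0.38) were also lower and Ppp2r3a was higher (0.24). Of 10 PP2A regulators 1 was called, the methylesterase gene Ppme1 (-0.62). Of 10 other tau phosphatases Ppp5c was lower (-0.46) and Ppp1cb higher (0.32).

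Kinase partners and relatives moved in both directions. Of 8 CDK5 activators and calpain genes, Cdk5r2, which encodes the p35 relative p39, was lower (-0.42), as was Capn1 (-0.58), and Cables1 (0.90) and Capn2 (0.26) were higher. Of 7 MARK and AMPK family kinases Mark4 was lower (-0.46), and of 8 GSK3 regulators the scaffold gene Axin1 was lower (-0.25). Of 8 genes for casein kinases, tubulin kinases and DYRK1B, Csnk1d (-0.36), Csnk1e (-0.46) and Dyrk1b (-0.41) were lower and Ttbk2 (0.27) was higher. Ttbk2 shares 29.89% of its exon bases with Cdan1 on the same strand, and its counts are uncertain for that reason. Of 15 other serine/threonine kinases, Mapk10 (-0.50), Mapk14 (-0.39) and Prkaca (-0.58), which encode JNK3, p38 alpha and a catalytic subunit of protein kinase A, were lower. In the same list Sgk1, a glucocorticoid-inducible kinase, had the largest difference of the 87, with 161 CPM in females and 60.2 CPM in males (1.41, SE 0.22, edgeR FDR 0.00488) and no overlap. Of 9 tyrosine kinases and Fyn regulators, the Fyn relative Yes1 was higher (0.78). Of the pathway genes named for the sexes, Axin1, Cdk5r2 and Ppme1 were called in 5, 8 and 9 of 20 alternatives and the others in 12 or more.

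The balance between paralogs and partners was read as a ratio of CPM within each library, which does not depend on library scaling. Ratios were tested over 16 pairs of ratio and contrast by exact two-sided permutation, and none passed the adjustment. The nearest was Ppp2r2b over Ppp2ca, the regulatory against the catalytic PP2A subunit. It was 0.273 ± 0.0348 (SD, n = 3) in female KO Tau and 0.248 ± 0.0149 (SD, n = 2) in female WT Tau. Male KO Tau had 0.337 ± 0.0447 and male WT Tau 0.303 ± 0.0184 (SD, n = 3 each). The sexes differed by -0.30 on the log2 scale (exact permutation p = 0.015, adjusted p = 0.24). Gsk3b over Gsk3a was 1.499 ± 0.071 in female KO Tau and 1.22 ± 0.209 in male KO Tau (SD, n = 3 each). In WT Tau it was 1.46 ± 0.172 in females (SD, n = 2) and 1.34 ± 0.092 in males (SD, n = 3), and these overlapped. Averaged over genotype the sex difference was 0.22, with an exact permutation p of 0.06 and an adjusted p of 0.4. The ratios Cdk5r1 over Cdk5 and Mark1 over Mark2 differed by -0.19 and 0.21 between the sexes, with an exact p of 0.095 and 0.1. In males no ratio had an exact p under 0.32 for genotype or under 0.48 for Tau. The exact test had 400 arrangements of the labels in males, 200 between the sexes and 10 for genotype in females. No p could fall below 0.005 in males or between the sexes, or below 0.1 for genotype in females.

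Whether the members moved with the cell make-up of the slice was asked within groups. Each member's deviation from its group mean was correlated with the deviation of 15 marker scores, over 17 libraries, with exact permutation within groups. Of 150 pairs 36 had a p under 0.05 and 0 passed the adjustment, with 8 at the smallest adjusted p of 0.0506. Ppp2r2b and the pan-neuronal score had r = 0.92 (exact permutation p = 0.000386) and Spearman rho = 0.91 (exact p = 0.00045), with r = 0.87 without libraries 711 and 712 and r = 0.93 within the 12 male libraries. Ppp2r2b also had r = -0.91 with astrocytes (rho = -0.90, exact p = 0.00122 and 0.000772) and -0.73 without 711 and 752. Mark1 had r = 0.94 and rho = 0.90 with inhibitory neurons (exact p = 0.00212 and 0.00617), and with neocortex r = 0.93 and rho = 0.85 (exact p = 0.00161 and 0.00373). Leaving out 711 and 752 took the first to 0.74, and leaving out 711 and 751 took the second to 0.89. Gsk3b and Cdk5r1 had r = 0.88 and 0.83 with the pan-neuronal score (rho = 0.86 and 0.82, exact p for r = 0.0027 and 0.00251, exact p for rho = 0.0045 and 0.00675), and 0.95 and 0.86 without 711 and 712. Mark2 had its largest r with thalamus, at -0.78 (rho = -0.79, exact p = 0.00604 and 0.00495), with -0.68 without libraries 314 and 324 and -0.63 within the 12 male libraries. Ppp2ca had r = -0.79 with nuclear-retained RNA (rho = -0.49, exact p = 0.0614 and 0.11), which fell to -0.29 without 711 and 712 and so rested on them.

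**Figure D4:**
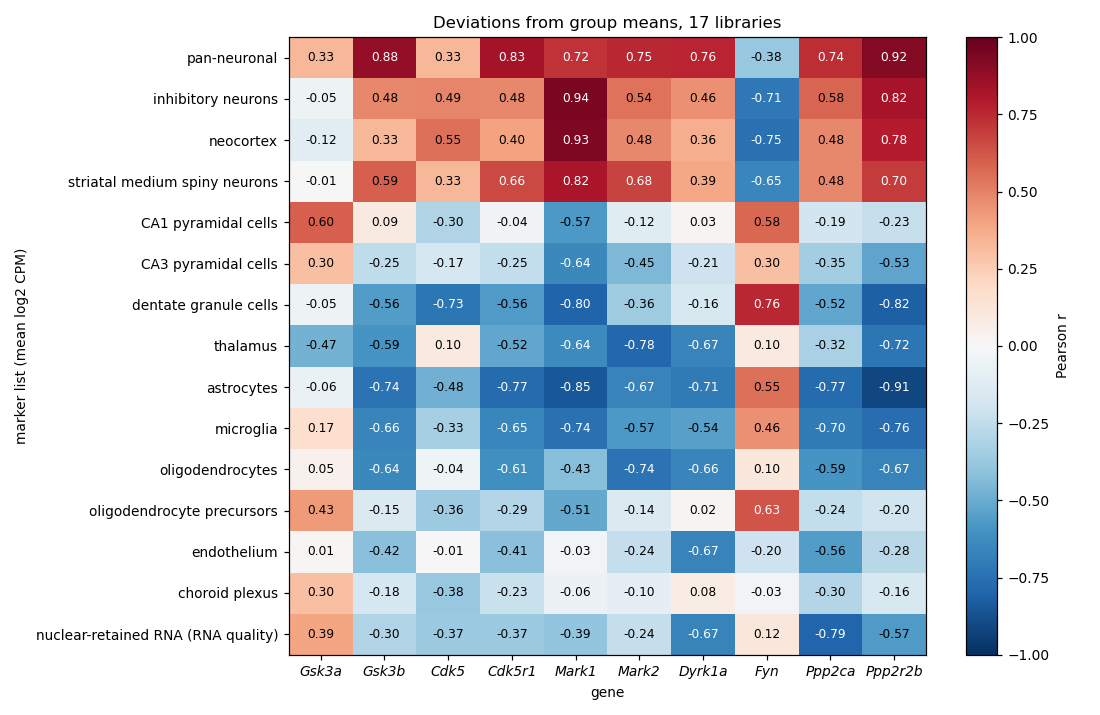
Pearson r (colour and printed value) between the within-group deviations of each of the 10 genes (x axis) and of each of 15 marker scores (y axis) over 17 libraries. Most genes are positive with the pan-neuronal score and negative with astrocyte markers, Ppp2r2b reaching 0.92 and -0.91. Fyn has the opposite signs for these 2 lists, and the largest r of Gsk3a is 0.60, with CA1 pyramidal cells. Lists of single neuron types can go the other way: with dentate granule cells Cdk5 is at -0.73 and Fyn at 0.76.

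Fyn stood apart in sign. Its r was 0.76 with dentate granule cells (rho = 0.47, exact permutation p = 0.103 and 0.173), where Ppp2r2b had -0.82 (rho = -0.86, exact p = 0.00238 and 0.00154) and Mark1 -0.80 (rho = -0.63, exact p = 0.0592 and 0.0715). The Fyn value fell to 0.38 without libraries 752 and 751, so it rested on those 2 libraries. The Ppp2r2b and Mark1 values are given here with all libraries only. Cdk5 had r = -0.73 with dentate granule cells (exact permutation p = 0.0112), and -0.76 without 752 and 751 (exact p = 0.0552). Gsk3a had its largest r with CA1 pyramidal cells (0.60, rho = 0.59, exact p = 0.0568 and 0.0612) and -0.06 with astrocytes.

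**Figure D5:**
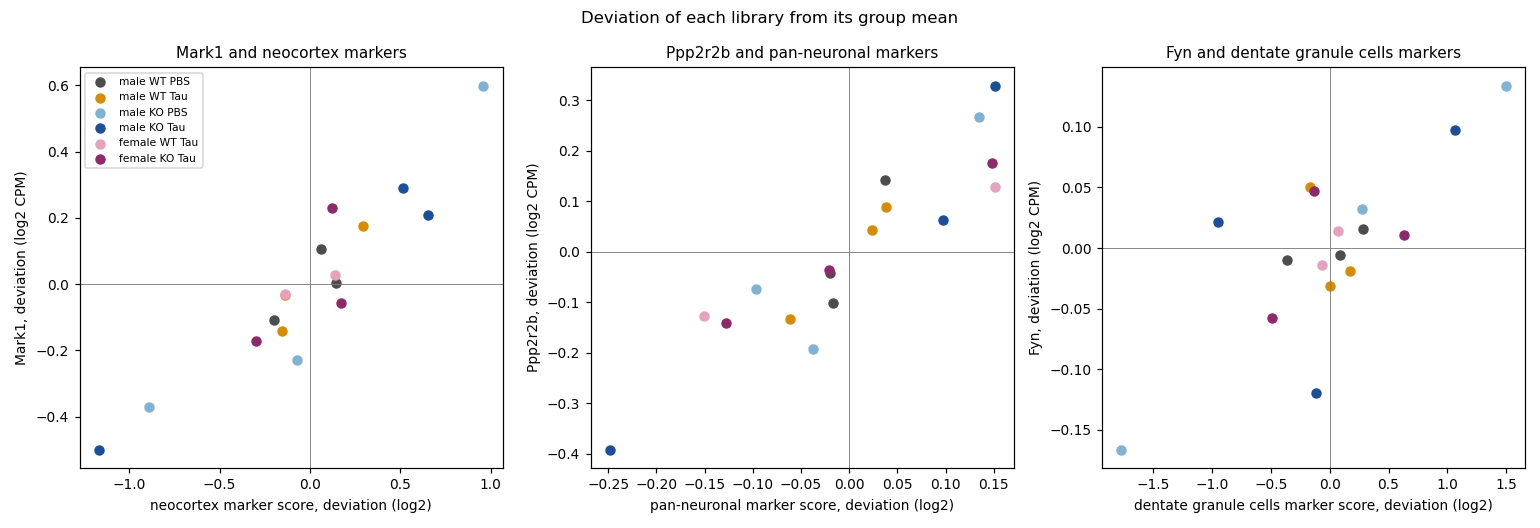
Within-group deviations (log2) of Mark1 against the neocortex score, of Ppp2r2b against the pan-neuronal score and of Fyn against the dentate granule score, 1 point per library, coloured by group. The largest deviations of Mark1 come from male KO libraries at both ends (r = 0.93), and the Fyn relation (r = 0.76) rests on 2 male KO PBS libraries.

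Among the members themselves 13 of 45 pairs had an exact p under 0.05 and 0 passed the adjustment, whose smallest value was 0.0897. The closest pair was Gsk3b and Cdk5r1, with r = 0.90 (exact permutation p = 0.00309) and rho = 0.85 (exact p = 0.00482), and r = 0.87 both without libraries 753 and 752 and within males. Gsk3b and Ppp2r2b had r = 0.79 and rho = 0.80 (exact p = 0.00399 and 0.00495), and 0.80 without 711 and 712. Mark2 and Dyrk1a had r = 0.76 and rho = 0.77 (exact p = 0.00823 and 0.00476), and 0.74 without 711 and 712. The part of slice make-up in these pairs was not tested.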

How the data were processed

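Poly(A) RNA from dorsal hippocampal slices was sequenced in 17 libraries, and the extraction protocol in the labels gives perfusion with PBS and then paraformaldehyde. The methods of the study give that perfusion for histology. For RNA they give Trizol-chloroform extraction from the slices, without naming fixation. The authors aligned reads to GRCm38 (mm10) with STAR 2.5.2 and counted them per gene with HTSeq 0.9.1 reverse-stranded, and deposited the raw counts per gene symbol. The annotation release was not given in the sources used here. Positions and exon lengths came from GENCODE for GRCm38, and promoter windows from RefSeq. Library totals ran from 14183131 to 22463635. No 2 of the 136 pairs of libraries were identical.

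Counts were tested in R 4.3.3 with edgeR 4.0.16 (TMM, filterByExpr with minimum count 10 and minimum total count 15, quasi-likelihood test, Benjamini-Hochberg FDR 0.05). One fit held the 12 male libraries (15098 genes) and another the 11 Tau libraries (15419 genes). All 10 members and all 87 pathway genes passed the filter in both. Printed CPM used TMM factors over all 17 libraries. Marker scores averaged log2 CPM (prior count 2) over a list, and ratios and correlations used exact permutation tests. The scripts were tested on simulated data. Alternatives were DESeq2 1.42.0, limma 3.58.1 voom with quality weights, RLE size factors, no filter, a dentate granule covariate, all 17 libraries in 1 fit, only the groups compared, and each library left out.

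The members, lists and tests were chosen with earlier results of these data known. All members, Acss2 and Mapt were always named. Other pathway genes were named if they passed the FDR in a comparison or, for KO Tau against WT PBS, the male averages and the sex comparison, if they were among the 3 higher and 3 lower genes with the smallest unadjusted p under 0.05. The labels describe the libraries of a group as biological replicates. One pathway gene that the rule would name is not reported here.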

Additional observations from a re-analysis of the deposited data

How the results depend on the processing

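In the 10 comparisons other than that of the sexes, members called stayed at 0 of 10 under every alternative run except DESeq2 on only the groups compared without male KO Tau library 711, which called 1 member in KO Tau against WT PBS and 1 in KO Tau against WT Tau, Mark1 in both, and 8 and 14 of the 87 pathway genes. For the sexes under Tau, members called were 4 with DESeq2 (28.1% of all genes), 3 with RLE size factors (23.6%), with no filter (16.9%) and with the dentate granule covariate (21.4%), 5 with all 17 libraries (29.2%) and 6 with voom (40.1%). Leaving out 1 library gave 0 to 6 members and 4 to 34 pathway genes, against 4 and 23. Voom called 36 pathway genes. Further settings were chosen after seeing the data. Their shares of all genes called are not given here, so the counts are not read against a background. Within WT mice alone 0 members and 1 pathway gene were called, within KO mice alone 1 and 8, and with total counts in place of TMM factors 3 members. The causes were not tested, although the within-genotype settings hold fewer libraries. With total counts 63.8% of all calls between the sexes were higher in females, against 47.8% with TMM factors, and the median of all genes moved from -0.01 to 0.05. All 10 members kept a negative difference between the sexes in each alternative. Cdk5r1 (FDR 0.0429) lost its call in 15 of 20 alternatives, with an FDR of up to 0.262. Depth was ample for each member. The part of the number of mice and of slice make-up in the precision was not tested. No paired analysis was possible because the labels number each mouse on its own and no number is shared between groups.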
